A study of Mus musculus with 16 samples.

Results

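The Krüppel-like factors (KLFs) are transcription factors that bind DNA through zinc fingers at the carboxyl end of the protein, at GC-rich sequences and at CACCC boxes. Here 10 KLF genes were chosen by name (Klf1, Klf2, Klf3, Klf4, Klf5, Klf6, Klf7, Klf9, Klf10 and Klf13) out of 21851 protein-coding genes in the GENCODE M21 annotation of mouse build mm10, and every peak in or near them was described. For each gene the body with 5 kb either side was searched, 348 kb in all for the 10 genes. Its promoters were searched separately, as 1 kb either side of each start site of its protein-coding transcripts. All 10 genes were found in the annotation. They hold 1 to 3 such start sites each, and a gene with several has more promoter length in which a peak can fall.

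KLF proteins share their zinc fingers and differ in the rest of the protein, so that some mainly activate and others mainly repress their targets. In blood, Klf1 is required for red cell formation, Klf2 for T cell quiescence and Klf4 in monocyte differentiation. H3K4me3 is a histone mark of active and poised promoters. H3K27me3 and H2AK119ub1 are placed by the Polycomb repressive complexes, and promoters that carry a Polycomb mark together with H3K4me3 are common at developmental regulators.

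Hematopoietic stem cells (HSCs) were sorted from the bone marrow of C57BL/6 mice as cells with c-kit and Sca-1 and CD150 but without lineage markers, Flt3, CD48 or CD34. Young mice were 10 weeks and aged mice 20 months old. Chromatin immunoprecipitation and sequencing was done for the 3 marks, with 2 libraries of every mark in either age group and as many of input, to compare the marks between young and aged HSCs. The values analysed here come from 6 lists of peaks, 1 for each mark and age, so there is no spread between replicates to measure, no difference between the ages was tested, and "young" and "aged" below refer to these lists.

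The lists give no library totals, but the reads stacked at each H3K4me3 summit could be recovered. At the KLF genes this pileup was 15 to 30 reads in young and 16 to 22 reads in aged HSCs, with medians of 20.0 and 19.0, the same as the medians of the whole lists. The lists differ in length. There were 11371 young and 6723 aged H3K4me3 peaks, 63142 and 20419 H3K27me3 regions, and 2593 and 17768 H2AK119ub1 regions, and each number of KLF genes below has to be read beside the share of all genes in the same list. Of 11 stem and progenitor genes, 8 in young and 7 in aged HSCs had H3K4me3 at a promoter (among them Procr, Mecom, Hlf, Tal1, Runx1 and Meis1 at both ages) and none had H3K27me3. Slamf1 and Ly6a, which encode the sorting markers CD150 and Sca-1, had none at either age, and Kit had a peak in the aged list but not in the young. None of 6 granulocyte and monocyte or 6 lymphoid genes had H3K4me3 in either list. Among 4 erythroid genes Epor and Tfrc had it in young HSCs and none in aged HSCs, and Cxcl12 was the 1 gene with it, at both ages, among 4 endothelial and stromal genes. Outside the stem and progenitor genes, promoter H3K27me3 was listed in young HSCs at Alas2, Pax5, Cd3e, Col1a1 and Cxcl12. In aged HSCs it was listed at Pax5 and Cxcl12. Promoter H2AK119ub1 was listed at Cxcl12 at both ages, and at Runx1, Alas2 and Pax5 in the aged list alone. Of all protein-coding genes, 33.8% in young and 23.3% in aged HSCs had promoter H3K4me3, and 16.0% and 8.24% had promoter H3K27me3. For promoter H2AK119ub1 the shares were 1.91% in young and 14.0% in aged HSCs.

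To show what lies under the signal, 300 bases around an H3K4me3 summit are printed for 5 peaks. The first is the strongest promoter peak of any KLF gene. The others are, for Klf3, Klf4, Klf7 and Klf9, the promoter peak with the highest −log10 q-value of a gene whose promoter peaks overlapped no peak of the other age. The q-value is the peak caller's p-value after adjustment for multiple testing, so a higher −log10 q-value marks a stronger peak. Klf10 met the same rule and is not printed. Each is read 5′ to 3′ on the strand of its gene from the GRCm38 (mm10) sequence. Capitals mark the CACCC box (CACCC, or GGGTG on the other strand) and the GC box (GGGCGG, or CCGCCC on the other strand), the kinds of sequence that KLF proteins themselves bind.
Klf13, young, chr7:63936919-63937218, minus strand: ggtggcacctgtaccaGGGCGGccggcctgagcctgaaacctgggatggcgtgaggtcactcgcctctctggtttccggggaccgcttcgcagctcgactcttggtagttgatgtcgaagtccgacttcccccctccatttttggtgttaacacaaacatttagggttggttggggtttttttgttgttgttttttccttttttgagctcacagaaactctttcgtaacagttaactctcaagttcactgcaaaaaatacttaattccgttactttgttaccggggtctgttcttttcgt
Klf3, aged, chr5:64804293-64804592, plus strand: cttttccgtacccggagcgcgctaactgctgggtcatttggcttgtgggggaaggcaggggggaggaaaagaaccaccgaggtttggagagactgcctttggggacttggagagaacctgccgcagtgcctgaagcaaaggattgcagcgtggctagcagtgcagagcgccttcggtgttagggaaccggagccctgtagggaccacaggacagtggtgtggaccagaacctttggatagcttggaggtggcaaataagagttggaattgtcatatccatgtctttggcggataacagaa
Klf4, aged, chr4:55533074-55533373, minus strand: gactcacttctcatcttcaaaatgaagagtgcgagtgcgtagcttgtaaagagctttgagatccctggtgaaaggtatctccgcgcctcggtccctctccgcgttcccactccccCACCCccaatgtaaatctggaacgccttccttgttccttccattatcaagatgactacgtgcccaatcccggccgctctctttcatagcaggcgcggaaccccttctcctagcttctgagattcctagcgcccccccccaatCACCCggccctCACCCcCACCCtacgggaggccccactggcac
Klf7, aged, chr1:64120314-64120613, minus strand: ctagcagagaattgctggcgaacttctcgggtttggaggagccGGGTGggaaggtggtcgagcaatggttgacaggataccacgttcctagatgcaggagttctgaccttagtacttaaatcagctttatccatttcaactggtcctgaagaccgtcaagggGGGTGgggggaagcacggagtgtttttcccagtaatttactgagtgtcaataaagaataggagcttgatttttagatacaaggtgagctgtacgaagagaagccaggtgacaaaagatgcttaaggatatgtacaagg
Klf9, young, chr19:23142122-23142421, plus strand: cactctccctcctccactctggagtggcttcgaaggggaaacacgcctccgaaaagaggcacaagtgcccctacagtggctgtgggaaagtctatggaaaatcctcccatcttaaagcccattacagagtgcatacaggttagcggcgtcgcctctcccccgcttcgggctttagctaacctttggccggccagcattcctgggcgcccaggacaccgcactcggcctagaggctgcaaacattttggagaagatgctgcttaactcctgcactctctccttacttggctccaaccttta
The Klf4 window holds 4 CACCC boxes, 2 of which run side by side, the Klf7 window holds 2, and the Klf13 window holds 1 GC box. The Klf3 and Klf9 windows hold neither motif. Among all 13 young summits at KLF genes, 8 had a CACCC box and 4 a GC box within such a window, beside 62.2% and 31.2% of all young H3K4me3 summits. For the 13 aged summits the numbers were 7 and 4, beside 64.6% and 35.8%. The GATA motif GATAA, searched on both strands, was in 1 young and 5 aged windows, beside 22.1% and 19.8% of all summits. These are matches of letters, not binding sites, and no test was made of them.

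Over the whole set, H3K4me3 was the mark most often listed at KLF genes. In young HSCs 4 of the 10 genes had an H3K4me3 peak at a promoter (Klf6, Klf7, Klf9 and Klf13), beside 33.8% of all protein-coding genes. In aged HSCs 6 had one (Klf3, Klf4, Klf6, Klf7, Klf10 and Klf13), beside 23.3%. The shorter aged list thus named more KLF genes than the longer young list, while over all genes the aged share was the lower one. When the young list was cut to the 6723 peaks with the highest −log10 q-values, 2 KLF genes kept a promoter peak (Klf6 and Klf13), beside 23.4% of all genes. At both ages a promoter peak was present for Klf6, Klf7 and Klf13, beside 17.5% of all genes. Klf9 had one in young HSCs only, beside 16.3%, and Klf3, Klf4 and Klf10 in aged HSCs only, beside 5.78%.

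In the gene body with 5 kb either side, H3K4me3 was listed at 6 genes in young HSCs (Klf1, Klf4, Klf6, Klf7, Klf9 and Klf13), beside 40.6% of all genes, and at 7 in aged HSCs (Klf3, Klf4, Klf6, Klf7, Klf9, Klf10 and Klf13), beside 29.0%. Over these wider windows, therefore, Klf4 and Klf9 had the mark at both ages, and 5 of the 10 genes had it in both lists (Klf4, Klf6, Klf7, Klf9 and Klf13), beside 23.0% of all genes. In the young list cut to 6723 peaks, 6 KLF genes still had a peak in these wider windows, beside 29.0% of all genes.

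H3K27me3 was listed at a single KLF gene. It was present at the Klf4 promoter in young HSCs, 1 gene of 10 beside 16.0% of all genes, and at none in aged HSCs, beside 8.24%. In the wider windows the numbers of KLF genes were again 1 and 0, beside 27.8% and 16.5%. H2AK119ub1 was listed at the promoter of 1 gene in young HSCs (Klf1), beside 1.91% of all genes, and of 3 in aged HSCs (Klf1, Klf4 and Klf10), beside 14.0%. In the wider windows there was 1 gene in the young list, beside 5.99%, and 6 in the aged list (Klf1, Klf3, Klf4, Klf9, Klf10 and Klf13), beside 29.0%. The aged H2AK119ub1 list is the longer one, and when it was cut to its 2593 widest regions, 1 KLF gene was left in the wider windows and none at a promoter, beside 6.51% and 3.53% of all genes. When it was cut instead to the 2593 regions with the highest −log10 q-values, a choice made after seeing the data, 3 KLF genes were left in the wider windows (Klf3, Klf4 and Klf9) and 1 at a promoter (Klf4), beside 7.13% and 2.92% of all genes. How many KLF genes stay in a list of that length thus depends on the ranking.

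**Figure D1:**
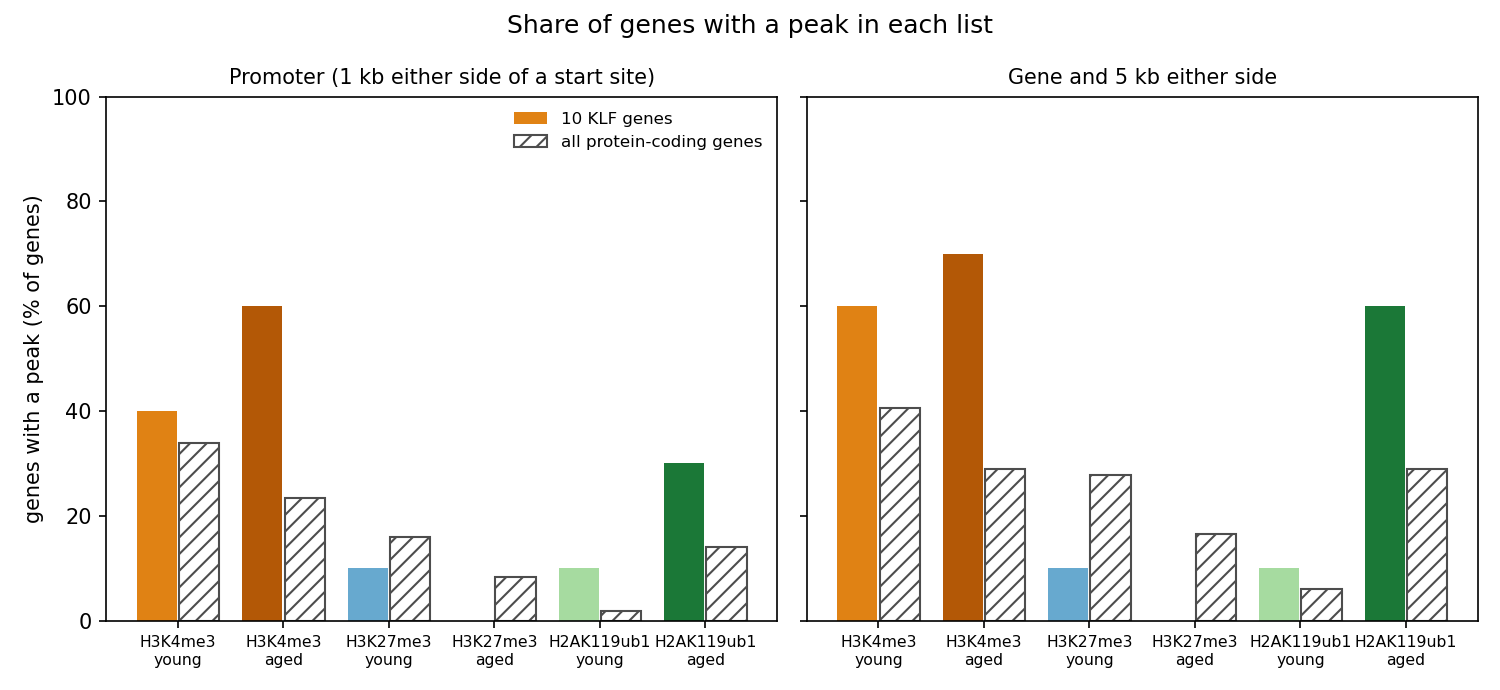
Bars give the percentage of genes with at least 1 peak in each of the 6 lists, for the 10 KLF genes (filled) and for all 21851 protein-coding genes (hatched), at promoters (left) and in the gene with 5 kb either side (right). H3K4me3 and H2AK119ub1 stand above the hatched bars at both ages in both panels, whereas H3K27me3 stands below them at both ages. No difference was tested, and 1 gene makes up 10.0% of a filled bar. With lists of equal length, promoter H3K4me3 was at 2 KLF genes in young HSCs, beside 23.4%. Aged promoter H2AK119ub1 was then at none, beside 3.53%, when ranked by width, and at 1, beside 2.92%, when ranked by −log10 q-value.

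The peaks were few. The windows held 35 peaks in all, 26 of H3K4me3 and 9 of the Polycomb marks. There were 13 H3K4me3 peaks at each age, covering 5919 bp in young and 3670 bp in aged HSCs. Of these, 5 young and 11 aged peaks touched a promoter of the KLF gene, and 1 more young peak touched that of the neighbouring gene Dnase2a. Of all H3K4me3 peaks in or within 5 kb of a protein-coding gene, 84.2% in young and 85.8% in aged HSCs touched a promoter, beside 6 of 13 and 11 of 13 here. This difference was not tested. Fold enrichment over background was 2.88 to 6.59 in young (median 4.25, whole list 4.04) and 2.87 to 5.08 in aged HSCs (median 4.42, whole list 4.20). The Polycomb marks added 1 young H3K27me3 region of 419 bp, 1 young H2AK119ub1 region of 256 bp and 7 aged H2AK119ub1 regions covering 2667 bp. In the account of single genes, the position of a peak is that of its summit (H3K4me3) or its middle (broad regions) from the nearest start site, with negative values upstream.

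**Figure D2:**
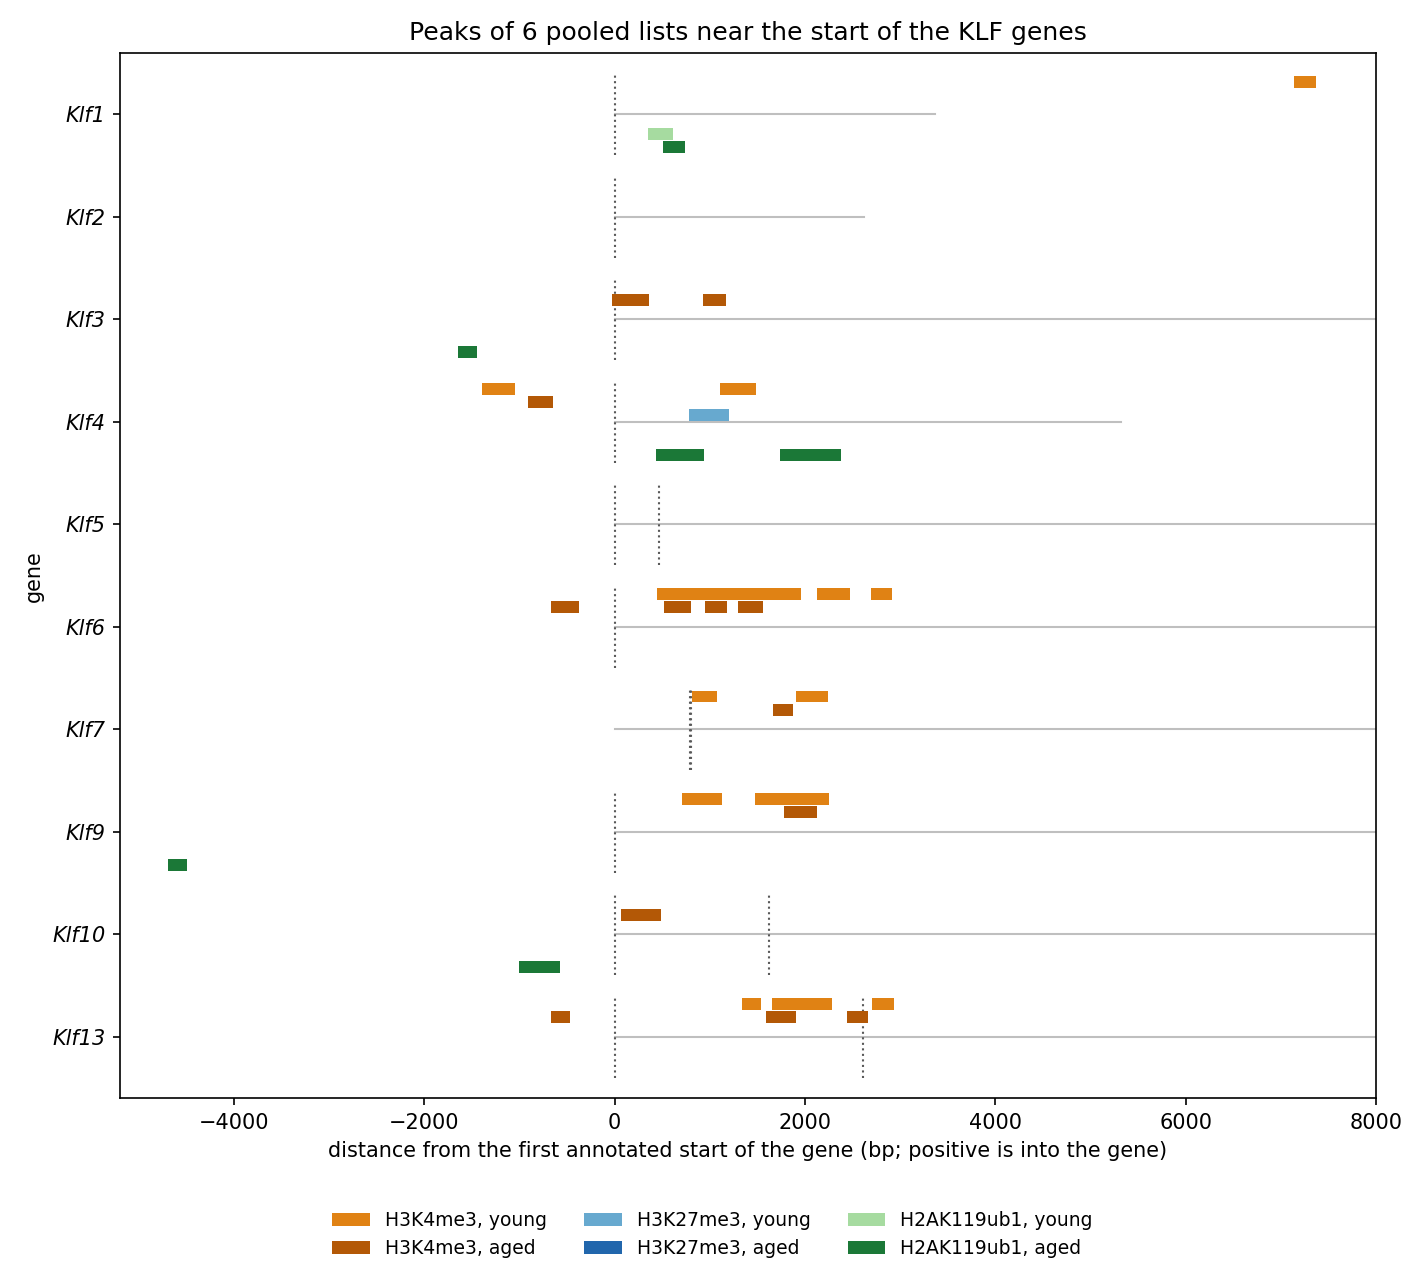
Boxes mark the extent of each peak by distance (bp) from the first annotated start of its gene, with 1 line of boxes per list and colours for mark and age. Dotted lines mark start sites of protein-coding transcripts and grey lines the gene, and the Klf13 region of aged H2AK119ub1, 41240 bp into the gene, lies outside the range shown. H3K4me3 boxes crowd from just upstream to 3 kb inside the genes, and Klf2 and Klf5 have none.

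Klf6, an early-response gene with growth-suppressing functions, was the most widely covered KLF gene. On chromosome 13 (5861482 to 5870394, plus strand) the young H3K4me3 peaks covered 2087 bp and the aged peaks 1076 bp. The largest young peak was 1515 bp wide, from 5861929 to 5863443 in an intron with its summit at 1277 bp, and was 5.10-fold enriched. In width it ranked 7 of 11371, and 0.0616% of the young peaks were as wide. Within its span the aged list had 3 separate peaks with summits at 697, 1009 and 1450 bp, of 285, 230 and 263 bp, each lying wholly inside the young peak and together covering 778 bp of it. Their enrichment was 5.08-fold, 2.87-fold and 4.50-fold. The young list had a further pair of intron peaks at 2398 bp (4.25-fold) and 2811 bp (5.25-fold) with no aged counterpart, and the aged list had a peak upstream at -519 bp (4.64-fold) with no young counterpart. The same part of the intron was thus listed as 1 broad block in young HSCs and as a row of narrow peaks in aged HSCs. No Polycomb peak lay in the window at either age.

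Klf7, studied mostly in neurons and adipose tissue, carried H3K4me3 at both ages without overlap. The gene lies on chromosome 1 (64029447 to 64122282, minus strand). In young HSCs a peak of 269 bp in the 5′ UTR had its summit at 150 bp (3.43-fold, 16 reads) and a peak of 330 bp in an intron had its summit at 1308 bp (5.04-fold, 24 reads). The aged peak of 215 bp, at 1018 bp in the same intron region, was 4.42-fold enriched with 19 reads. It ended 31 bp from the young intron peak, so the lists share no base here although the peaks are neighbours. Of all genes with promoter H3K4me3 at both ages, 80.6% had promoter peaks that overlapped between the ages. Of the KLF genes, Klf6 and Klf13 did and Klf7 did not.

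Klf4, a regulator of monocyte differentiation and one of the factors used to reprogram cells to pluripotency, was the 1 KLF gene with peaks of all 3 marks. It lies on chromosome 4 (55527143 to 55532466, minus strand). The young list had H3K4me3 on both sides of the start, at -1292 bp (353 bp wide, 4.00-fold, 22 reads) and at 1407 bp in an intron (380 bp, 2.88-fold, 19 reads). The edges of these peaks lay 1045 bp and 1103 bp from the start site, just beyond the promoter limit, which is why Klf4 was not among the young promoter genes. The aged list had a single peak upstream, at -758 bp (261 bp, 3.76-fold, 16 reads), 131 bp from the young upstream peak. The enrichment of all 3 peaks was below the median of their lists.

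The Polycomb marks at Klf4 lay inside the gene and differed between the lists. The young H3K27me3 region of 419 bp, from 55531265 to 55531683 over a coding exon and an intron, was 3.04-fold enriched with a −log10 q-value of 1.73, and 64.6% of the young regions had a −log10 q-value as high. It overlapped the weaker young H3K4me3 peak by 99 bp. In the aged list there was no H3K27me3 region within 237103 bp of the start site. Instead the aged list had H2AK119ub1 at 687 bp, a region of 514 bp over the 5′ UTR, a coding exon and an intron (4.01-fold, −log10 q-value 3.39, reached by 2.38% of the aged regions). A second region of 642 bp lay over coding sequence at 2062 bp (3.26-fold, −log10 q-value 1.71). The first of these overlapped the position of the young H3K27me3 region by 161 bp. The nearest young H2AK119ub1 region was 238292 bp from the start site.

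Klf1, the erythroid factor needed for adult beta-globin expression, had no H3K4me3 peak at its promoter in either list. It lies on chromosome 8 (84901928 to 84905291, plus strand). H2AK119ub1 was listed in the same intron at both ages. The young region of 256 bp, from 84902282 to 84902537, was 3.81-fold enriched, and 10.2% of the young regions had a −log10 q-value as high. The aged region of 222 bp, from 84902441 to 84902662, was 3.17-fold enriched, with a −log10 q-value of 1.56 reached by 64.0% of the aged regions. They shared 97 bp. The promoter of Klf1 had a CpG content of 0.266 of that expected from its C and G bases, the lowest of the 10 genes. The young H3K4me3 peak counted for Klf1 in the wider window (233 bp, 4.46-fold) was 7276 bp from its start and within 1 kb of a start of the neighbouring gene Dnase2a, so it lies at the promoter of another gene.

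Klf2, which keeps T cells quiescent and is induced by flow in endothelium, and Klf5, a factor of epithelial growth, had no peak of any mark at either age within the gene or 5 kb either side. This was so for 2 of the 10 genes, beside 31.6% of all genes. The H3K4me3 peak nearest to a Klf2 start (chromosome 8, 72319033 to 72321656) was 78416 bp away in young and 157376 bp away in aged HSCs. For Klf5 (chromosome 14, 99298691 to 99315036) these distances were 198221 and 198420 bp. An aged H2AK119ub1 region lay 13802 bp from the start of Klf2. A gene without a listed peak may carry a mark below the threshold of the peak caller, so these are genes with no peak, not genes shown to lack the mark.

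Klf3, which represses erythroid and other targets through the corepressor CtBP, was listed in aged HSCs and not in young HSCs. It lies on chromosome 5 (64803388 to 64832901, plus strand). The aged H3K4me3 peaks were at 286 bp over the 5′ UTR (387 bp, 3.98-fold, 17 reads) and at 1055 bp in an intron (240 bp, 4.64-fold, 20 reads). The first had a GC content of 77.3%, the highest of all H3K4me3 peaks at KLF genes. An aged H2AK119ub1 region of 200 bp lay upstream at -1552 bp (3.73-fold). The nearest young H3K4me3 peak was 147074 bp from a start site. Both aged peaks also lay within 1 kb of starts of the noncoding genes Gm20033, which runs on the other strand, and C230096K16Rik, and the mark cannot be assigned to one of the 3 genes.

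The last group holds Klf9, Klf10 and Klf13, which can repress through the corepressor SIN3A. Klf9, a gene induced by glucocorticoid and thyroid hormone, had H3K4me3 further inside the gene than its promoter window. It lies on chromosome 19 (23141226 to 23168134, plus strand). The strongest young peak, 780 bp wide, at 1617 bp in an intron, was 5.44-fold enriched with 26 reads, and 5.09% of the young peaks had a −log10 q-value as high. The aged peak of 343 bp, at 2102 bp (4.20-fold, 18 reads), lay wholly within it. A second young peak of 418 bp over a coding exon and an intron, at 1046 bp (3.63-fold, 17 reads), was what placed Klf9 among the young promoter genes, and it had no aged counterpart. Far upstream, at -4593 bp, an aged H2AK119ub1 region of 200 bp was 4.32-fold enriched, and 0.946% of the aged regions reached its −log10 q-value of 3.81, the highest rank of any Polycomb region at a KLF gene.

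Klf10, a gene induced early by TGF-beta, was listed in aged HSCs and not in young HSCs, with both an active and a Polycomb mark. It lies on chromosome 15 (38291463 to 38300706, minus strand). The aged H3K4me3 peak of 416 bp, from 38300220 to 38300635 over 5′ UTR, coding exon and intron, had its summit at 179 bp (4.42-fold, 19 reads). The aged H2AK119ub1 region of 421 bp lay upstream at -790 bp (3.27-fold, −log10 q-value 1.88). The regions did not overlap. The nearest young peaks were 169506 bp (H3K4me3), 45561 bp (H3K27me3) and 241919 bp (H2AK119ub1) from a start site.

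Klf13, a regulator of the chemokine gene Ccl5 in T cells, had the strongest H3K4me3 peak of the set. The gene lies on chromosome 7 (63886351 to 63938915, minus strand) and has 3 start sites, the second 2614 bp and the third 14045 bp inside the first. The young peak from 63936627 to 63937261 (635 bp) was 6.59-fold enriched with 30 reads and a −log10 q-value of 11.7, which 0.466% of the young peaks reached. Its summit was 1846 bp inside the first start and at -768 bp from the second. The aged list had a peak over the same position, 313 bp wide and 4.86-fold enriched with 21 reads, and the peaks shared 254 bp. Beside them, the young list had weaker intron peaks at 206 bp (3.23-fold) and -1179 bp (4.03-fold) and the aged list had peaks at -132 bp (3.76-fold), over the second start, and at -578 bp (3.98-fold), upstream of the first. Thus all but 1 of the H3K4me3 peaks of Klf13 lay around the second start, and the peak upstream of the first start was listed in aged HSCs. An aged H2AK119ub1 region of 468 bp lay in an intron 27195 bp from the nearest Klf13 start, and within 1 kb of a start of the noncoding gene Gm27252.

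**Figure D3:**
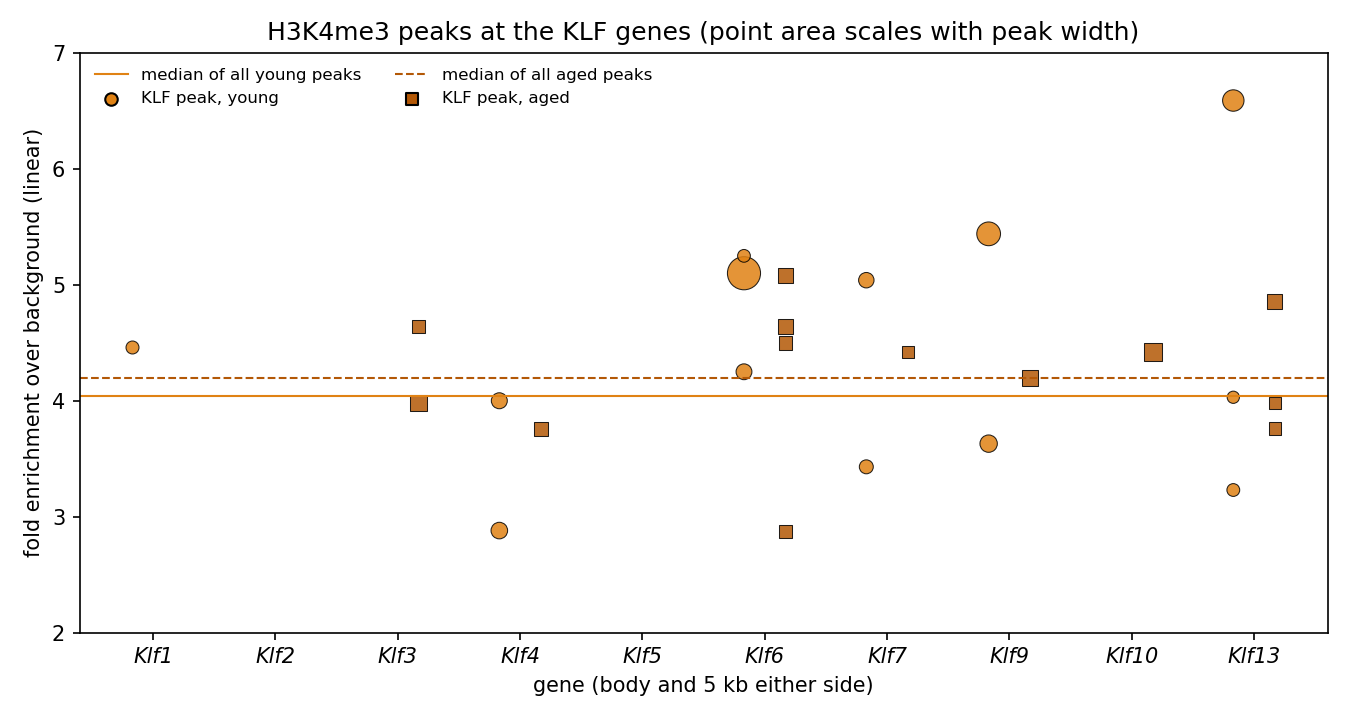
Each point is an H3K4me3 peak in the gene or 5 kb either side, with its fold enrichment over background (linear scale, from 2) by gene and age, and an area that scales with peak width. Lines give the medians of the whole lists, 4.04 in young and 4.20 in aged HSCs, and the highest points are the young peaks of Klf13 (6.59-fold) and Klf9 (5.44-fold).

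Across the genes, most H3K4me3 peaks lay near the first start. Of the 26 peaks, 24 had their summit between 1 kb before and 3 kb after the first annotated start of the gene, 19 touched an intron, 16 lay in introns alone and 4 lay upstream alone. A coding exon was touched by 2 peaks and a 5′ UTR by 4. These positions were not counted for all H3K4me3 peaks, so whether they are particular to KLF genes cannot be said. Of all such peaks in or within 5 kb of a protein-coding gene, 84.2% in young and 85.8% in aged HSCs touched a promoter. Among peaks at promoters, 4 of 5 young and 6 of 11 aged KLF peaks had their summit downstream of the nearest start, beside 71.6% and 71.8% of all promoter peaks. The promoters of KLF genes are rich in GC and CpG. Their GC content was 53.1% to 64.8% (median 58.8%, all genes 51.1%), above the median of all genes for all 10, and their CpG content was 0.266 to 0.964 of that expected (median 0.738, all genes 0.470), above the median of all genes for 9. In the RefSeq promoter set (300 bases around a start, most of them upstream, GRCm38.p6), 8 KLF genes were matched. A CACCC box was present in 6 of them, beside 57.5% of 32851 promoters, and a GC box in 6, beside 35.7%. Base composition was not taken into account in the shares of all genes given above.

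Most H3K4me3 peaks without a counterpart at the same position had one nearby in the list of the other age. In all, 3 of the 13 young peaks and 5 of the 13 aged peaks overlapped a peak of the other age, beside 32.0% of young and 53.5% of aged peaks in or within 5 kb of any protein-coding gene. Of the 10 young peaks that did not, 9 had an aged peak within 2 kb, beside 33.5%, and of the 8 such aged peaks 5 had a young peak within 2 kb, beside 47.7%. These shares were not tested, and several of the peaks belong to the same gene. The exceptions were the young peak near Dnase2a and the aged peaks of Klf3 and Klf10. Requiring that 50% of the peak be shared left 1 young peak as shared, that of Klf6, and all 5 aged peaks. For H2AK119ub1 the Klf1 intron was the 1 shared position, and for H3K27me3 there was none.

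**Figure D4:**
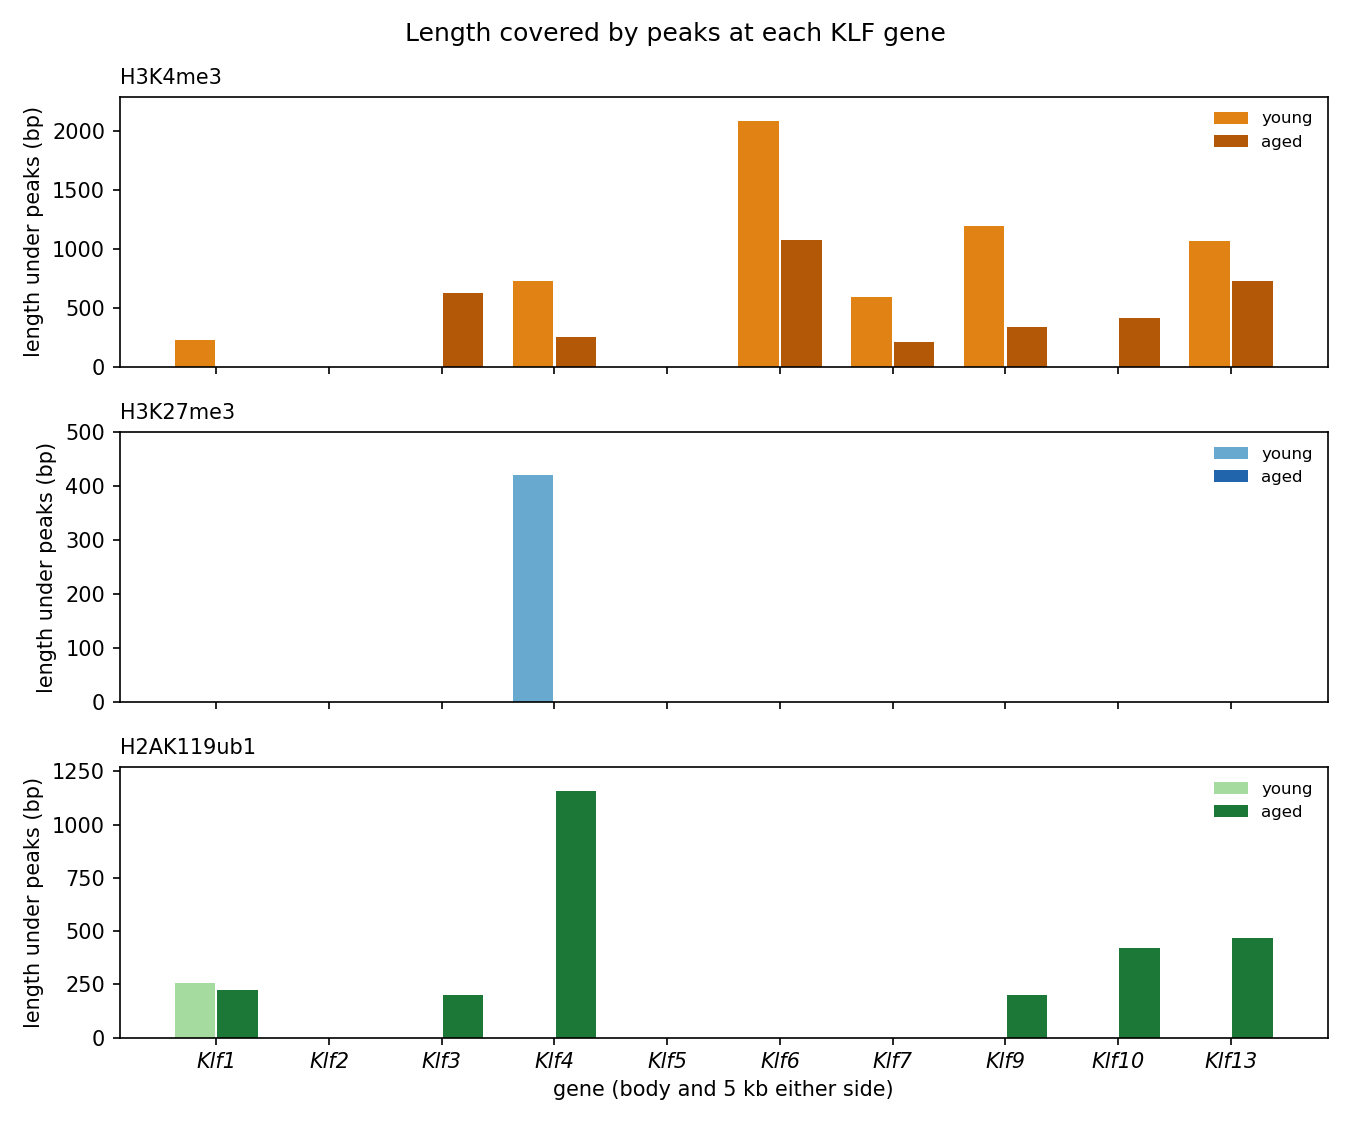
Bars give the length under peaks (bp) at each KLF gene with 5 kb either side, by mark and age, with a separate scale for each mark. For H3K4me3, Klf4, Klf6, Klf7, Klf9 and Klf13 have more covered length in the young list and Klf3 and Klf10 in the aged list. The young Klf1 bar is the peak at the promoter of the neighbouring gene Dnase2a. The young H3K4me3 list is also the longer one, with 11371 peaks against 6723. H2AK119ub1 is present at 6 genes in the aged list, beside 29.0% of all genes, and at 1 in the young list, beside 5.99%. The aged H2AK119ub1 list is the longer one, with 17768 regions against 2593. With lists of equal length, aged H2AK119ub1 was at 1 KLF gene, beside 6.51%, when ranked by width. It was at 3, beside 7.13%, when ranked by −log10 q-value.

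Among the KLF genes, promoters with H3K4me3 and a Polycomb mark together were listed only in aged HSCs and only with H2AK119ub1. No KLF gene carried H3K4me3 with H3K27me3 at the promoter in young HSCs (all genes 2.96%) or in aged HSCs (0.792%). With H2AK119ub1 there was none in young HSCs (0.403%) and 2 in aged HSCs (3.16%), Klf4 and Klf10, and in both genes the marks lay beside each other without overlap. In lists of equal length the aged number was 0 with broad regions ranked by width and 1 with −log10 q-value. The share of all genes with both marks was not computed for those lists. Klf4 stood at the edge of this definition, since its young H3K4me3 and H3K27me3 peaks overlapped inside the gene but the former ended outside the promoter. As a pattern over the 6 lists, H3K4me3 at both ages with no Polycomb mark (Klf6, Klf7 and Klf13) was held by 3283 protein-coding genes, the pattern of Klf9 by 2817, that of Klf3 by 971 and that of Klf2 and Klf5, with no promoter peak, by 9827. The patterns with a Polycomb mark were rarer. That of Klf10 was held by 135 genes, that of Klf4 by 43 and that of Klf1 by 12.

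The other genes of the family were counted in the same way. Over all genes, the promoter shares in young and aged HSCs were 33.8% and 23.3% for H3K4me3 and 16.0% and 8.24% for H3K27me3. For H2AK119ub1 they were 1.91% and 14.0%. Of the 7 remaining KLF genes (Klf8, Klf11, Klf12, Klf14, Klf15, Klf16 and Klf17), 2 had promoter H3K4me3 in young HSCs (Klf12 and Klf16) and 2 in aged HSCs (Klf11 and Klf16). H3K27me3 was listed at Klf14 and Klf15 in young and at Klf14 in aged HSCs, and H2AK119ub1 at Klf15 in young and at Klf14 and Klf15 in aged HSCs. The SP genes encode related factors with the same type of zinc fingers. Of 9 SP genes, 4 had H3K4me3 in young HSCs (Sp3, Sp4, Sp5 and Sp6) and 2 in aged HSCs (Sp2 and Sp4). H3K27me3 was listed at the same 5 SP genes in both lists, Sp5, Sp6, Sp7, Sp8 and Sp9, and aged H2AK119ub1 at these 5 as well, with Sp7 and Sp9 also in the young list. Among the 10 KLF genes, Klf1, Klf4 and Klf10 were the 3 with a Polycomb mark at a promoter in any list. The share of all genes with such a mark in any list was not counted, so this number cannot be read as high or low.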

How the data were processed

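ChIP-seq was performed by the authors on HSCs of young and aged mice, with 16 libraries in 8 groups by the labels. Reads were aligned to mm10 with Bowtie2, and the submitters' processing notes also name MACS2 2.2.6. The deposited files are 6 pooled lists in MACS layout, narrow for H3K4me3 and broad for the others. The peak names of the broad lists carry 1 library number, so pooling of both replicates there is not certain. For each peak the authors' caller gave a linear ratio to background (fold enrichment), the −log10 of the p-value and of the q-value (means over the region in broad lists), and a score that repeats the −log10 q-value and was not used further. Reads at a summit were recovered from fold and p-value, taking fold as (pileup + 1) / (background + 1) and p as a Poisson tail, and were whole for 100% of H3K4me3 peaks within 0.0001 in −log10 p. Sequencing totals are not part of the lists.

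Overlap of at least 1 bp counted, on chromosomes 1 to 19, X and Y. Start sites (41438) came from protein-coding transcripts of the basic GENCODE M21 set. Python 3.11.15, numpy 2.4.6, pandas 2.3.3, scipy 1.17.1, pysam 0.24.0 and matplotlib 3.10.9 were used. Overlap and recovery were tested on simulated data. The 12 alternatives changed the q-value limit, list length, promoter and window size, start sites and overlap. No test between ages was made, as each list has no replicate. The named genes were all 10 KLF genes with every peak in their windows, the other KLF and SP genes, and fixed marker genes, of which 2 are not reported here. The members and lists were chosen with earlier results of these data known. Sequences were read from GRCm38.p6, and promoters were taken from RefSeq.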

Additional observations from a re-analysis of the deposited data

How the results depend on the processing

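Under 12 alternatives, 174 counts and lengths were recomputed, of which 124 stayed within 1.5 times the reported value and 50 did not. A reported 0 that stayed 0 counts among the 124. An alternative that only removes peaks or narrows a window could not have moved such a 0, so the 124 are not a measure of stability. With peaks under a −log10 q-value of 4 left out, promoter H3K4me3 was left at 2 KLF genes in young HSCs (Klf6 and Klf13, beside 24.8% of all genes), while the aged H3K4me3 windows had 8 peaks covering 2373 bp, and every H3K27me3 and H2AK119ub1 count and length at both ages, and promoters with both H3K4me3 and aged H2AK119ub1, came to 0. At that limit few genes of any kind were left with a promoter region, 2.18% and 0.0412% of all genes for young and aged H3K27me3 and 0.00915% and 0.188% for young and aged H2AK119ub1. Lists of equal length were ranked by −log10 q-value for H3K4me3 and by width for the broad marks. In them promoter H3K4me3 was left at 2 genes in young HSCs, beside 23.4% of all genes. Young H3K27me3 came to 0 throughout, beside 12.1% of all genes at promoters and 19.5% in the wider windows. Aged H2AK119ub1 came to 0 promoters (beside 3.53%), 0 promoters with both marks, and 1 gene (beside 6.51%) with 1 peak covering 642 bp. With the broad lists ranked by −log10 q-value instead (chosen after seeing the data), young H3K27me3 again came to 0, beside 11.2% and 19.5%. Aged H2AK119ub1 was left at 1 promoter (beside 2.92%), that of Klf4, which also had H3K4me3. In the wider windows it was left at 3 genes (beside 7.13%) with 3 peaks covering 914 bp. With promoters of 500 bp either side, young H3K27me3 was at 0 genes, aged H2AK119ub1 at 1 and both H3K4me3 and aged H2AK119ub1 at 0. With 2.5 kb either side, with start sites of all transcripts, and with those of protein-coding transcripts of the full annotation (chosen after seeing the data), 1 gene, Klf4, had both H3K4me3 and H3K27me3 in young HSCs. The gene body alone held aged H2AK119ub1 at 3 genes in 4 peaks, and 10 kb either side held 2 young H2AK119ub1 regions covering 456 bp. Shares of all genes were not computed for changed promoter sizes, start sites, window sizes or overlap. Counts of KLF genes under those settings therefore cannot be read as high or low. Joining peaks within 1 kb left 7 young and 8 aged H3K4me3 peaks. Sharing by 50% of the peak left 1 young H3K4me3 peak, all 5 aged H3K4me3 peaks and 0 H2AK119ub1 regions of either age. The aged promoter H3K4me3 count was 4 to 7 genes over the 7 alternatives run for it and the young one 2 to 5, and the aged one was the higher in each of these 7. The cause of these changes was not tested beyond what each alternative itself removes. No paired analysis was possible because every mark and age is represented by 1 pooled list, and leaving out a replicate was not possible for the same reason. The modest enrichment of the broad regions, most with −log10 q-values under 4, limits what can be said of H3K27me3 and H2AK119ub1 at single genes. The limit also touches H3K4me3, with list medians of 4.04-fold and 4.20-fold and of 20.0 and 19.0 reads. Without peaks under 4, the young promoter genes lost Klf7 and Klf9 and the aged ones lost Klf4.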
